A study of Rattus norvegicus with 54 samples.

Results

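The change of gene expression between foetal days 16 and 20 (F16 and F20) was compared between liver and skeletal muscle of the Wistar rat, gene by gene, as a difference of differences. For each gene the muscle change (muscle F20 minus muscle F16) was subtracted from the liver change (liver F20 minus liver F16) on the log2 scale, so that a positive difference means that the gene moved upwards in liver relative to its move in muscle. The comparison used 18 of the 54 arrays of the series, chosen by their tissue and time labels: 4 of liver F20, 4 of liver F16, 5 of muscle F20 and 5 of muscle F16. All 18 came from foetuses delivered by Caesarean section, and total RNA was hybridised to a whole-transcript rat array. The study's methods name the hind limb as the source of the muscle. The tissues were normalised separately, and the level of a gene in liver was therefore never set against its level in muscle. The labels do not say which arrays came from littermates. The p-values rest on a spread pooled over 45 time-series arrays of both tissues, later time points included, and not on these 18 arrays alone. The SE of a gene in a tissue therefore also reflects its spread in the other tissue and at later time points. That spread may be partly technical. A bulk array cannot tell fewer cells of a type from less RNA per cell.

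In this period the foetal liver is both the main site of blood formation and a gland in which hepatoblasts turn into hepatocytes that secrete plasma proteins and begin nitrogen, lipid and bile acid metabolism. Over the same days the hind-limb muscle passes from primary to secondary myogenesis, in which myoblasts fuse to fibres, assemble sarcomeres and receive innervation, while the patterning genes of the limb bud are shut down. Dissected foetal limb also carries skin, cartilage, bone and connective tissue.

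Several arrays had high values of marker genes of the other tissue. Albumin (Alb), the main plasma protein of hepatocytes, was 8.16, 8.36, 8.83, 11.43 and 12.19 in the muscle F20 arrays and 12.21, 12.20, 7.66, 11.73 and 7.02 in the muscle F16 arrays. Its level was thus above 11 in 2 of 5 F20 and 3 of 5 F16 arrays, and the time points overlapped. The summed level of the 29 plasma protein genes spanned 11.99 to 14.02 in muscle F20 and 11.68 to 13.99 in muscle F16. Cardiac actin (Actc1), which foetal skeletal muscle also expresses, was 10.24, 7.25, 7.62 and 7.09 in the liver F20 arrays and 9.59, 6.74, 9.71 and 11.19 in the liver F16 arrays, above 9 in 1 of 4 and 3 of 4 arrays. Refits left out the 5 muscle arrays with Alb above 11 (the Alb-high muscles) or the 4 livers with Actc1 above 9 (the Actc1-high livers, which leaves 1 liver F16 array), and are given beside the list counts they moved by more than 1.5 times. The part of these arrays in the results was not tested beyond that. Of 130 genes named in the text whose difference passed, 122 passed again without the Alb-high muscles and 115 without the Actc1-high livers. The hind-limb factors Tbx4 and Pitx1 were at 9.99 to 10.62 and 9.32 to 9.77 in muscle F20 and at 10.58 to 11.36 and 9.41 to 10.22 in muscle F16. The forelimb factor Tbx5 was at 8.15 to 8.37 in muscle F20 and at 11.58 to 12.002 in muscle F16. In the F18 muscles, outside this comparison, Tbx5 was at 8.43 to 9.47. Whether the F16 muscle came from the hind limb alone was not tested. Every array correlated with its own tissue and time point at 0.9915 or more across genes.

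**Figure D1:**
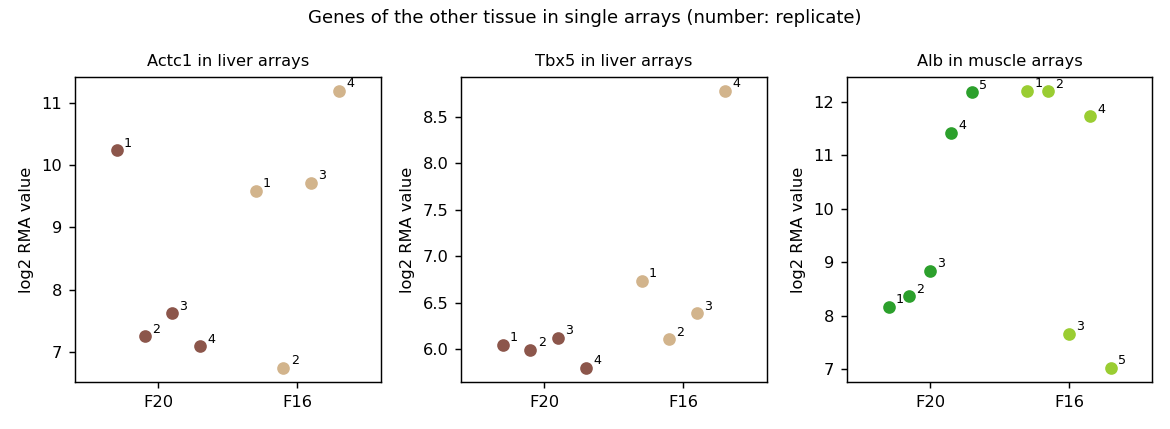
Log2 values of Actc1 and Tbx5 in the liver arrays and of Alb in the muscle arrays, with F20 left of F16 and 1 point per array. Actc1 was above 9 in 1 F20 and 3 F16 livers, Tbx5 reached 8.77 in 1 F16 liver, and Alb was above 11 in 2 F20 and 3 F16 muscles.

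Of 14506 genes tested, 4780 (33.0%) had a difference of changes that passed an adjusted p of 0.05 (limma's moderated test with Benjamini-Hochberg adjustment). The liver change lay above the muscle change for 2303 genes (15.9%) and below it for 2477 genes (17.1%). Within liver, 1341 genes (9.24%) rose and 1972 (13.6%) fell between F16 and F20, whereas within muscle 2911 (20.1%) rose and 3878 (26.7%) fell. Changes were also larger in muscle: their standard deviation over genes was 0.303 in liver and 0.511 in muscle. Most differences came from the muscle side, since 2848 genes (19.6%) had a difference that passed together with a muscle change but no liver change that passed, against 877 genes (6.05%) with a liver change but no muscle change that passed. A difference of at least 1 was found for 277 genes (1.91%) in the liver direction and 600 genes (4.14%) in the muscle direction.

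**Figure D2:**
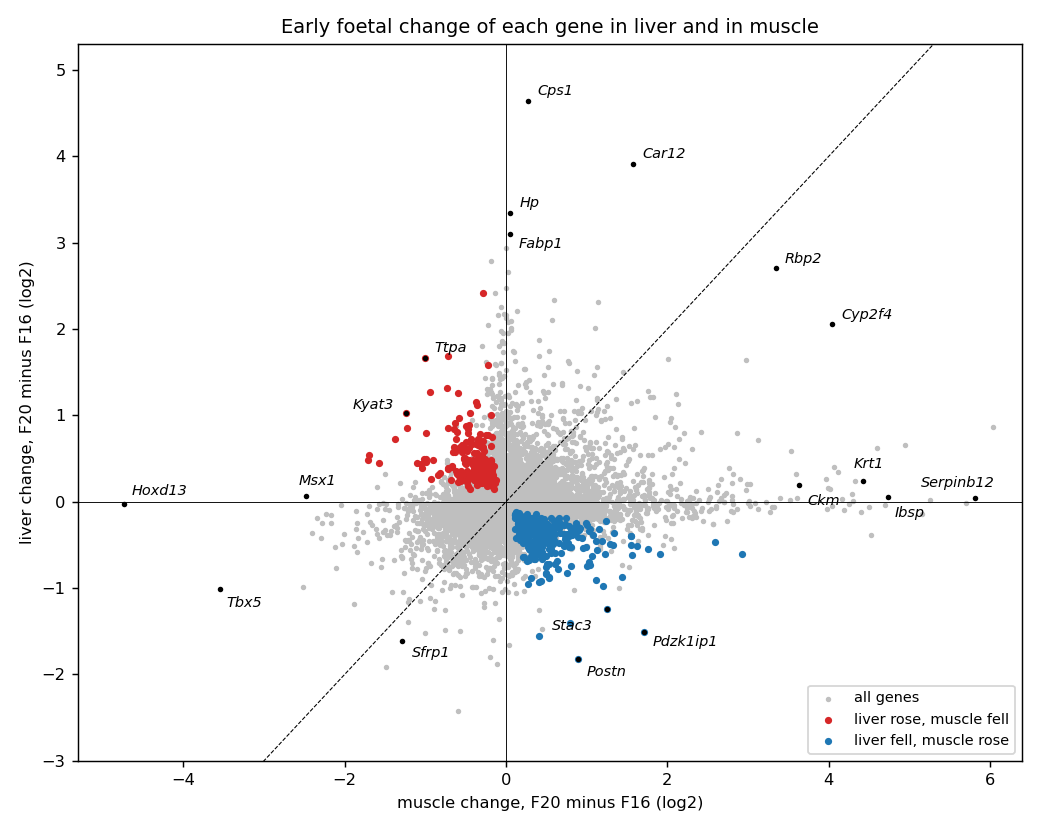
Liver change against muscle change (F20 minus F16, log2) of each gene tested, with lines showing equal changes and no change. Colour marks only genes with opposite changes whose difference, liver change and muscle change all passed (209 that rose in liver, 331 that fell). All other genes are grey, also those whose difference passed. The cloud is wider along the muscle axis (standard deviation 0.511) than along the liver axis (0.303), and the most distant genes lie close to 1 of the axes.

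The genes with the most positive differences were mainly genes of the hepatocyte that rose in liver. Among the 15 highest differences, 12 genes rose in liver and 6 fell in muscle. These 15 were ranked by the difference among genes whose F20 and F16 arrays did not overlap in at least 1 tissue. Such counts and the lack of overlap therefore follow in part from the choice. The mitochondrial enzyme Cps1, which carries out the first step of the urea cycle, had values of 12.14, 12.16, 12.11 and 12.08 in liver F20 and 7.70, 7.62, 7.13 and 7.47 in liver F16. In muscle it stayed low, at 6.69, 6.58, 6.36, 6.86 and 7.16 at F20 and 6.37, 6.44, 6.42, 6.54 and 6.51 at F16. All liver F20 arrays lay more than 4 units above all liver F16 arrays, a 25-fold increase, and the difference between the tissues' changes was 4.37 ± 0.21 (SE, adjusted p = 1.5e-19, limma). Other enzymes of the cycle were less uniform. Arginase (Arg1) and ornithine transcarbamylase (Otc) rose by 1.61 and 0.77 in liver with no muscle change that passed. Argininosuccinate synthase (Ass1) rose by 1.21 in liver and by 1.82 in muscle, so that its difference was negative (-0.61 ± 0.20, SE), while argininosuccinate lyase (Asl) changed by -0.04 in liver and -0.07 in muscle with no test passed. The liver change of Otc (0.56) and the difference of Ass1 (-0.66) did not pass without the Actc1-high livers.

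Haptoglobin (Hp), the plasma protein that binds free haemoglobin, was 10.81, 10.93, 10.89 and 10.94 in liver F20 and 7.66, 7.47, 7.41 and 7.64 in liver F16. Its muscle values of 7.62, 7.45, 7.62, 7.52 and 7.75 at F20 and 7.38, 7.70, 7.24, 7.62 and 7.75 at F16 overlapped. The liver groups were fully apart and the difference of 3.29 ± 0.17 (SE, adjusted p = 1.3e-18, limma) lay wholly on the liver side. The liver fatty acid carrier Fabp1 showed the same pattern with 10.53, 10.65, 10.76 and 10.82 in liver F20 and 7.60, 7.52, 8.13 and 7.10 in liver F16, against 5.52 to 6.23 in muscle F20 and 5.56 to 5.94 in muscle F16. Its difference was 3.06 ± 0.24 (SE), and a liver F16 array at 8.13 was still more than 2 units below the lowest F20 array.

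Complement and coagulation genes rose in liver. Complement factors had 12 of 16 genes with a positive difference and none with a negative one, with a median difference of 0.78 beside 0.02 over all genes. The pore-forming component C9 rose by 2.13 and the lectin Mbl1 by 1.20 in liver, where 12 of the 16 rose (7 without the Actc1-high livers). Of the coagulation factors, 13 of 16 had a positive difference (median 0.70) and 11 rose in liver. The 13 were 9 without the Alb-high muscles and 7 without the Actc1-high livers, where 6 rose in liver. Plasma prekallikrein (Klkb1) had a difference of 1.67 ± 0.20 (SE) and factor XII (F12) of 0.998 ± 0.11. Prothrombin (F2) was 12.01, 12.17, 12.01 and 12.04 in liver F20 and 11.01, 11.09, 11.24 and 10.93 in liver F16, without overlap, a difference of 0.89 ± 0.23 (SE, adjusted p = 0.0021, limma) that was 0.88 (adjusted p = 0.055) without the Actc1-high livers. Of 15 apolipoproteins 9 had a positive difference, among them Apoc1 (1.09 ± 0.13, SE), Apoc3 (1.01 ± 0.22) and Apoc4 (1.19 ± 0.22). The 9 were 5 without the Alb-high muscles, with a median of 0.40 in place of 0.81, and 3 without the Actc1-high livers, where 2 rather than 6 rose in liver and Apoc3 did not pass.

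Among the 29 plasma proteins, the difference was positive for 9, beginning with Hp, and negative for 0, with a median of 0.79. A difference passed for 31.0% of this list, against 33.0% of all genes (15.9% in the liver direction). The values of the plasma protein list moved with the arrays left out. Without the Alb-high muscles 9 were positive and 1 negative, the median was 0.50, and 14 rather than 9 rose in liver. Without the 3 muscle arrays least like their groups (F16 replicate 5, low in Alb, and F20 replicates 4 and 5, high in Alb) 21 were positive and the median was 1.44. Serpina6, which encodes the corticosteroid-binding globulin, had 6.86, 6.83, 7.03, 7.43 and 7.93 in muscle F20 and 10.38, 10.18, 6.77, 9.68 and 6.58 in muscle F16. At F16 the arrays high in Serpina6 were those high in Alb. At F20 replicates 4 and 5, also high in Alb, had only 7.43 and 7.93. The liver change of Serpina6 was -0.08 ± 0.47 (SE) and did not pass. Its muscle change of -1.50 was 0.23 and did not pass without the Alb-high muscles. The bile salt export pump Abcb11 and the bile acid uptake carrier Slc10a1 (1.99 in liver) belonged to a list of which 10 of 16 genes had a positive difference. Abcb11 was 8.55, 8.57, 8.35 and 8.81 in liver F20 and 6.08, 6.49, 6.25 and 6.45 in liver F16, a 4.77-fold increase, while muscle changed by -0.06. Cyp7a1, the rate-limiting enzyme of bile acid synthesis, rose by 0.94 in liver, and its difference of 0.95 did not pass in either refit.

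Enzymes of amino acid breakdown also had positive differences. Of 28 amino acid breakdown enzymes, 17 had a positive and 0 a negative difference, and 19 rose in liver. The choline and methionine branch led this list: Dmgdh (2.26 ± 0.14, SE), Bhmt (1.95 ± 0.27), Gnmt (1.93 ± 0.22) and Mat1a (1.89 ± 0.17). Not all members passed. The hormone-inducible tyrosine aminotransferase (Tat) and the serine dehydratase Sds, enzymes known to be induced around birth, changed by 0.00 and 0.01 in liver. Of gluconeogenesis, 3 of 11 genes passed in the liver direction and 0 in the muscle direction. That is 27.3% of the list, against 33.0% of all genes (15.9% in the liver direction). The list was led by fructose bisphosphatase (Fbp1), which was 9.17, 9.30, 9.04 and 9.30 in liver F20 and 7.60, 7.70, 7.77 and 7.40 in liver F16. Glucose-6-phosphatase (G6pc1) and Pck1, the other gatekeepers of glucose release, changed by -0.01 and -0.10, and the 95% interval of their difference was -0.77 to 0.86 for G6pc1 and -0.74 to 0.58 for Pck1.

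Cytochrome P450 enzymes had 9 of 21 genes with a positive difference and 0 with a negative one, with the steroid 17-hydroxylase Cyp17a1 (1.80), Cyp2c22 (2.66) and Cyp2a1 (1.16) rising in liver. Conjugation enzymes had 9 of 19 positive and 1 negative. The negative one was the sulphotransferase Sult1c2, which rose by 1.29 in muscle and whose difference did not pass without the Actc1-high livers. Peroxisomal genes had 12 of 23 positive and 0 negative, led by urate oxidase (Uox, 1.74 ± 0.32, SE) and the phytanic acid enzyme Phyh (1.52 ± 0.13). Cytochrome, glutathione transferase, serpin, stefin, mast cell protease and globin genes belong to families of close paralogues, and a probe set of one member may bind transcripts of another.

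Of 21 transcription factors of the hepatocyte, 3 had a difference that passed in the liver direction and 2 in the muscle direction, and 8 rose in liver. A difference passed for 23.8% of the list, against 33.0% of all genes (15.9% in the liver direction), and 9.24% of all genes rose in liver. The list as a whole thus held no more differences than all genes. Without the Actc1-high livers the 3 were 1 and the 8 were 3, and Foxa3 (0.41) and Nr1h4 (0.37) did not pass. The pregnane X receptor Nr1i2 (1.12 ± 0.13, SE), Foxa3 (0.59 ± 0.16) and the bile acid receptor Nr1h4 (0.58 ± 0.15) passed, and Hnf4a had 0.32 ± 0.13, which did not. Cebpa, which adipocytes also express, rose by 0.42 in liver (0.24, not passing, without the Actc1-high livers) and 0.88 in muscle.

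Promoter windows of 300 bases (250 before and 50 after the start, RefSeq, GRCr8) are shown for a pair of genes that rose in liver and held GTTAAT, the conserved core of sites of the liver factor HNF1. The motif was searched on both strands and is in capitals. Of 54 secreted liver protein genes with a single window, 14 (25.9%) held it, against 7.45% of all 24206 promoters, 6.29% of the 11520 promoters of tested genes and 1 of 38 contractile genes (2.63%). Liver enzyme genes held it in 10 of 67 (14.9%) and TATAAA in 19 of 67 (28.4%), against 14.3% of all promoters. The window of Fabp1 is chr4:104749090-104749389, plus strand, and that of F2 is chr3:98065197-98065496, minus strand, both printed in the direction of transcription.

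Fabp1: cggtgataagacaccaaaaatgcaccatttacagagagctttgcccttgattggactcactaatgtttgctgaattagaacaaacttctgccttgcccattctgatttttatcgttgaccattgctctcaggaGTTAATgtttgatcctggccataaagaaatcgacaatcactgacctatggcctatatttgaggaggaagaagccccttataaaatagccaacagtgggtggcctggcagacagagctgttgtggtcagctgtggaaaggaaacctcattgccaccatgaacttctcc

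F2: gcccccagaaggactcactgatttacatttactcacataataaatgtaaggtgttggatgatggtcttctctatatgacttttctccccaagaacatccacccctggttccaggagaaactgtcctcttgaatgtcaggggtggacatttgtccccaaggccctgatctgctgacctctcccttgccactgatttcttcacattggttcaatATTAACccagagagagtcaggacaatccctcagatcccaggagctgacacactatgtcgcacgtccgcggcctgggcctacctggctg

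The motif began at position -117 from the start in Fabp1 and at -38 in F2. A match describes letters in a window and no binding was measured.

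On the muscle side, contractile genes rose in muscle while their liver values stayed low. Muscle creatine kinase (Ckm), which buffers ATP in fast fibres, was 8.92, 7.46, 7.48 and 7.60 in liver F20 and 7.70, 7.46, 7.75 and 7.77 in liver F16. In muscle it was 12.73, 12.46, 12.28, 13.08 and 12.95 at F20 and 9.30, 9.15, 9.19, 8.65 and 9.06 at F16. The muscle groups were fully apart, a 12.4-fold increase, whereas the first liver F20 array, the F20 liver with Actc1 above 9, lay above all other livers. The difference was -3.43 ± 0.39 (SE, adjusted p = 4.2e-09, limma).

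Fast fibre genes had a negative difference in 10 of 17 (median -1.66) and slow fibre genes in 11 of 12 (median -1.70), or 7 of 12 without the Actc1-high livers. The fast troponins Tnni2 (2.97 in muscle) and Tnnt3 (2.43) and the calcineurin-binding Myoz1 (2.52) rose beside the slow light chain Myl3 (3.02) and the slow myosin-binding protein Mybpc1 (2.05). The adult fast myosins did not pass: Myh4, Myh1 and Myh2 changed by 0.12, 0.09 and 0.11 in muscle with no test passed. The embryonic myosin Myh3 rose by 1.41 in muscle, with a difference of -2.41 ± 0.64 (SE) that was -2.06 without the Alb-high muscles and -1.42 without the Actc1-high livers and did not pass in either. The slow troponin Tnni1 rose in both tissues, by 1.56 in liver and 1.12 in muscle, where its change was 0.76 and did not pass without the Alb-high muscles.

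Genes of the Z-disc and filament scaffold had 15 of 16 negative differences and a median of -1.88. Titin (Ttn), the filament that anchors myosin to the Z-disc, ranged over 5.74 to 7.90 in liver F20 and 5.75 to 7.79 in liver F16, and was 12.42, 12.15, 12.13, 12.10 and 11.99 in muscle F20 and 9.80, 10.20, 10.27, 9.57 and 11.19 in muscle F16. The muscle groups did not overlap, the livers with Actc1 above 9 were the 4 highest livers, and the difference was -2.45 ± 0.53 (SE). Xirp2 was the member that did not pass (-0.21 ± 0.37, SE). The count stayed at 15 of 16 in refits without the 3 muscle arrays least like their groups, without the Alb-high muscles and without the Actc1-high livers.

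Excitation and calcium release followed, with 12 of 14 calcium handling genes negative. They included the junctional protein triadin (Trdn, 1.86 in muscle), the release channels Ryr1 (1.59) and Ryr3 (1.56) and the channel subunit Cacng1 (1.38). All 6 creatine genes measured were negative too. Of these, the creatine-making enzymes Gatm and Gamt changed by -0.20 and 0.62 in liver and rose by 1.14 and 1.05 in muscle, and the difference of Gamt did not pass in either refit. The dystrophin complex and muscle laminin list had 9 of 10 negative, with the integrin Itga7 (-1.75 ± 0.14, SE), the sarcoglycan Sgca (-1.56 ± 0.17) and dystrophin itself (Dmd, -1.28 ± 0.16).

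The myogenic list held 16 of 20 genes with a negative difference, with 7 that fell in liver and 15 rising and 2 falling in muscle. Without the Actc1-high livers 0 fell in liver and 12 had a negative difference, and without the Alb-high muscles 9 rose in muscle. Myf6, a factor of late fibre differentiation, was 9.02, 8.75, 8.65, 10.19 and 9.85 in muscle F20 and 7.23, 6.73, 7.05, 7.13 and 6.92 in muscle F16, with no overlap and a difference of -2.31 ± 0.29 (SE, adjusted p = 3.2e-08, limma). Myogenin (Myog) and the fusion protein Mymk rose by 0.68 and 0.72, and the acetylcholine receptor subunits Chrng and Chrnd by 1.08 and 1.11. Myog (0.38) and Mymk (0.40) did not pass without the Alb-high muscles. Myod1, a factor of myoblasts, changed by 0.04, and Pax3 and Six4, factors of muscle progenitors, fell, with muscle changes of -0.35 and -0.33.

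Promoter windows of 3 muscle genes are shown for the E-box CANNTG, the core of the sites of myogenic factors, again on both strands, in capitals and printed in the direction of transcription. It is common: 71.3% of all promoters and 33 of 38 contractile and Z-disc windows (86.8%) held it. Among the 16 myogenic windows 12 (75.0%) did. The CArG box, the site of serum response factor, was in 5 of 38 contractile and Z-disc windows (13.2%) and 1.65% of all promoters. The window of Ckm is chr1:88189211-88189510, plus strand, that of Des, the muscle intermediate filament, is chr9:84299376-84299675, plus strand, and that of Stac3, an adaptor of the calcium channel, is chr7:65228225-65228524, plus strand.

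Ckm: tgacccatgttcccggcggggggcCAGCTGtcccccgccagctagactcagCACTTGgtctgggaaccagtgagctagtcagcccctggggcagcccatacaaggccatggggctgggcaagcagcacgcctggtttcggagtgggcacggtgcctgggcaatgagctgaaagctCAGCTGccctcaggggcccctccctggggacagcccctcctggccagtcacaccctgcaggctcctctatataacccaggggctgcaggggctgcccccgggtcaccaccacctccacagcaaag

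Des: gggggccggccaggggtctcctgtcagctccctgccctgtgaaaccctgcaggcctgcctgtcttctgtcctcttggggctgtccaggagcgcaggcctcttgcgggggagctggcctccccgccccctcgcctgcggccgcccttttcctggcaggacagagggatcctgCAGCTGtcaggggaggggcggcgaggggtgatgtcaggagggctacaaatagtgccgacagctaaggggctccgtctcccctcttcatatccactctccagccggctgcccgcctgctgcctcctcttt

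Stac3: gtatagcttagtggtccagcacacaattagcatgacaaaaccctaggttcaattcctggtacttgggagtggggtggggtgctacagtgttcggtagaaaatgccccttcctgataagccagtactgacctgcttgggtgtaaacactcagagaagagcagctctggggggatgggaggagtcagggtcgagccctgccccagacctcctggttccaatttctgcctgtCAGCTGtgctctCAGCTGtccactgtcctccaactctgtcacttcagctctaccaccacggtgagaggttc

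Ckm held 3 such motifs, Stac3 2 and Des 1.

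The lowest differences did not belong to muscle fibres. Of the 15 most negative genes, 0 changed in liver by the test and 15 rose in muscle, and most are genes of differentiating epidermis. Serpinb12, an epithelial protease inhibitor, lay within 4.57 to 4.66 in liver F20 and 4.50 to 4.67 in liver F16, and was 11.88, 11.67, 11.60, 11.92 and 11.96 in muscle F20 and 6.35, 6.37, 5.70, 5.98 and 5.56 in muscle F16. The muscle arrays rose 56.2-fold without overlap, and the difference was -5.77 ± 0.35 (SE, adjusted p = 2.1e-16, limma). Dermokine (Dmkn, -5.71), cornifelin (Cnfn, -5.29), the barrier lipoxygenase Alox12b (-5.24), the transglutaminase Tgm3 (-4.74) and the keratin Krt77 (-4.56) followed.

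Of 9 epidermal markers measured, 9 had a negative difference, with a median of -1.82. Keratin 1 (Krt1), a keratin of the suprabasal layers, was 13.43, 13.50, 13.40, 13.16 and 13.43 in muscle F20 and 9.60, 8.76, 9.13, 9.20 and 8.12 in muscle F16, and Krt10 rose by 4.06. The basal keratins Krt14 and Krt15 rose less, by 1.47 and 1.20. All F20 muscle arrays held these transcripts at the higher level, so that no single array carried the change.

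Genes of bone and mast cells were also among the negative differences. Bone sialoprotein (Ibsp) lay within 5.06 to 5.19 in liver F20 and 4.83 to 5.24 in liver F16, and was 11.03, 11.42, 10.76, 11.96 and 11.74 in muscle F20 and 6.46, 6.59, 7.79, 5.95 and 6.46 in muscle F16. No muscle array of F20 overlapped with F16, and the collagenase Mmp13 rose by 4.29. The cartilage and bone list as a whole was divided, with 3 positive and 10 negative of 22: the chondrocyte factor Sox5 fell by 1.24 in muscle on the log2 scale and Sox6 changed by -0.38, while the osteoblast genes Alpl (1.70) and Sp7 (0.64) rose. Its median difference of -0.47 became 0.05 without the Alb-high muscles, the 10 negative were 4 there and 4 without the Actc1-high livers, and the difference of Alpl did not pass in either. Mast cell carboxypeptidase (Cpa3) was 9.98, 10.48, 9.83, 10.87 and 10.56 in muscle F20 and 7.12, 6.77, 6.51, 6.74 and 6.59 in muscle F16, and 6 of 11 mast cell genes had a negative difference (3 without the Actc1-high livers).

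Connective tissue matrix also parted the tissues. Of 9 collagen genes 8 had a negative difference, 4 fell in liver and 8 rose in muscle. Collagen I (Col1a1) was 9.65, 9.16, 9.62 and 9.28 in liver F20 and 10.38, 9.23, 10.04 and 10.55 in liver F16, where the groups overlapped and the high F16 arrays were those with high Actc1. In muscle it was 13.51, 13.49, 13.46, 13.50 and 13.63 at F20 and 11.92, 11.94, 12.06, 11.45 and 12.38 at F16, without overlap. Its difference of -2.19 ± 0.27 (SE) was -1.44 without the Actc1-high livers, a refit in which 0 of the 9 collagen genes fell in liver and 7 had a negative difference. The microfibril protein Mfap5 (3.99), fibromodulin (Fmod, 2.56) and the tendon glycoprotein Tnmd (2.19) rose in muscle.

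**Figure D3:**
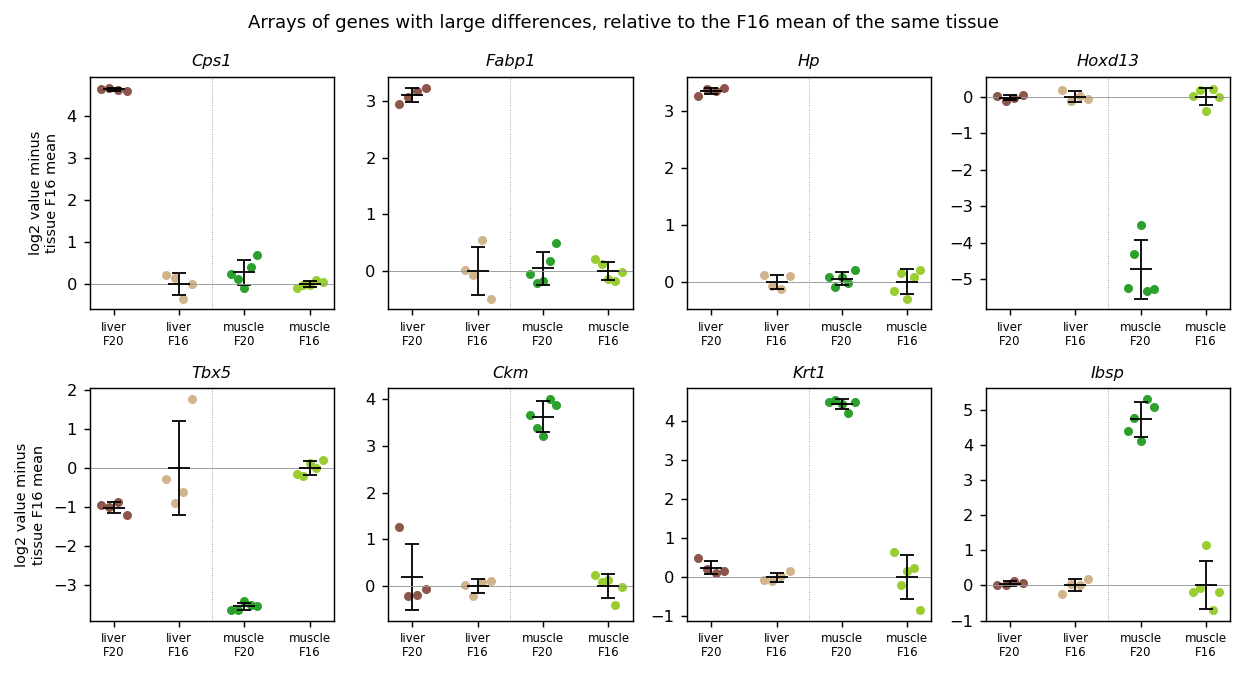
Log2 values of 8 genes with large differences in each array, relative to the F16 mean of the same tissue, with mean and SD per group and F20 left of F16 in each tissue. Cps1, Fabp1 and Hp rose in liver, Hoxd13 and Tbx5 fell in muscle, and Ckm, Krt1 and Ibsp rose in muscle.

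Genes of limb patterning made up a further part of the positive differences, with muscle values lower at F20. Hoxd13, which patterns the digits, had the highest difference of the 15 named, 4.70 ± 0.39 (SE, adjusted p = 1.9e-12, limma). It lay within 5.79 to 5.94 in liver F20 and 5.78 to 6.09 in liver F16, and was 7.11, 8.05, 8.85, 7.03 and 7.10 in muscle F20 and 12.38, 12.54, 11.96, 12.56 and 12.35 in muscle F16. The muscle F20 arrays were unequal, replicates 2 and 3 lying above the other three. The F18 muscles, outside this comparison, still held 11.36 to 11.66.

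Msx1, a homeobox repressor of undifferentiated limb mesenchyme, was 6.80, 7.04, 7.31, 7.13 and 7.08 in muscle F20 and 9.72, 9.65, 9.06, 9.95 and 9.37 in muscle F16, and Msx2 and Hoxd10 had muscle changes of -2.23 and -2.17. Of 15 Hox and limb identity genes, 14 fell in muscle, 8 had a positive difference and 1 a negative one. The exception was Hoxc9, which rose by 0.83 in muscle. Tbx5, the forelimb and heart factor, was 6.05, 5.99, 6.12 and 5.80 in liver F20 and 6.74, 6.11, 6.39 and 8.77 in liver F16, and the high F16 array was the one highest in Actc1. In muscle it was 8.15, 8.15, 8.37, 8.27 and 8.24 at F20 and 11.63, 11.58, 11.90, 11.80 and 12.002 at F16, a 11.7-fold fall, while its liver change of -1.01 was -0.14 without the Actc1-high livers. The hind-limb factors Tbx4 and Pitx1 had muscle changes of -0.67 ± 0.19 and -0.39 ± 0.11 (SE), and their differences of 0.14 ± 0.29 and 0.25 ± 0.17 did not pass. Without the Alb-high muscles these muscle changes were -0.33 and -0.13 and did not pass. The fall of Tbx5 was not tested against that of Tbx4.

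Genes that moved in opposite directions with all 3 tests passed were few. There were 209 (1.44%) that rose in liver and fell in muscle and 331 (2.28%) that fell in liver and rose in muscle. These counts fell without the arrays that had high markers of the other tissue: 127 of the 209 and 170 of the 331 passed again without the Alb-high muscles, and 74 and 71 did without the Actc1-high livers. All 209 and 319 of the 331 kept both signs in the last of these.

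Kyat3, a kynurenine aminotransferase, was 8.98, 9.31, 9.05 and 9.14 in liver F20 and 8.20, 8.20, 8.01 and 7.96 in liver F16. In muscle it was 7.58, 7.58, 7.78, 7.37 and 7.42 at F20 and 8.79, 8.79, 8.81, 8.92 and 8.59 at F16. No array overlapped with the other time point in either tissue, and the difference was 2.26 ± 0.12 (SE, adjusted p = 1.4e-18, limma). The vitamin E carrier of the hepatocyte, Ttpa, rose by 1.67 ± 0.10 (SE) in liver and changed by -1.004 ± 0.09 in muscle, where its values were 7.09, 7.13, 7.26, 7.09 and 7.18 at F20 and 8.34, 8.05, 7.90, 8.46 and 8.03 at F16. The time points were apart in muscle.

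Gas2, a growth arrest protein of the actin cytoskeleton, was 8.39, 8.60, 8.69 and 8.80 in liver F20 and 7.76, 8.02, 7.88 and 7.41 in liver F16, against 10.51, 10.92, 11.08, 10.41 and 10.49 in muscle F20 and 11.87, 11.97, 11.91, 12.04 and 11.78 in muscle F16. The aldehyde dehydrogenase Aldh1b1 (1.27 in liver, -0.95 in muscle), the imine deaminase Rida (0.80, -0.99), the glutathione transferase Gstk1 (1.32, -0.73), the fatty acid hydroxylase Cyp4f4 (1.68, -0.72) and the glutamate receptor subunit Gria2 (0.72, -1.37) completed the 8 with the largest smaller change.

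In the other direction, Pdzk1ip1, a small membrane protein that interacts with PDZK1, was 7.79, 7.82, 8.12 and 7.72 in liver F20 and 9.45, 9.59, 9.41 and 9.04 in liver F16. In muscle it was 9.84, 9.52, 9.47, 9.75 and 9.97 at F20 and 8.14, 7.79, 8.03, 8.09 and 7.95 at F16, and the groups were apart in both tissues (difference -3.22 ± 0.22, SE, adjusted p = 8.4e-15, limma). Among the F16 livers it was lowest in the array with the highest Actc1. Stac3 was 6.49, 6.19, 6.07 and 5.90 in liver F20 and 7.37, 7.45, 7.41 and 7.38 in liver F16, with the groups apart and the 4 F16 arrays within 0.1 of each other.

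The matricellular protein periostin (Postn) was 8.26, 7.38, 7.56 and 7.27 in liver F20 and 9.88, 8.57, 9.34 and 9.97 in liver F16, lowest at F16 in the array lowest in Actc1, and 12.91, 12.92, 12.94, 12.71 and 12.81 in muscle F20 and 11.85, 11.88, 12.09, 11.72 and 12.31 in muscle F16. Its difference of -2.71 ± 0.46 (SE) was -2.05 without the Actc1-high livers, and that of desmin (Des, -2.32 ± 0.31) was -2.14, while the liver changes of Postn (-1.17), Des (-0.70) and Gas2 (0.68) did not pass there. The myelin and lymphocyte protein Mal (-0.98 in liver, 1.20 in muscle), Kiaa0040 (-0.91, 1.11), the secreted synaptic protein Lgi1 (-1.40, 0.80) and the lymphangiogenic factor Vegfd (-0.82, 0.76) moved the same way. Without the Alb-high muscles the muscle changes of Postn (0.72), Lgi1 (0.41) and Vegfd (0.52) did not pass. Without the Actc1-high livers, a refit with 1 liver F16 array, the liver changes of Vegfd and Gria2 were -0.71 and 1.1.

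**Figure D4:**
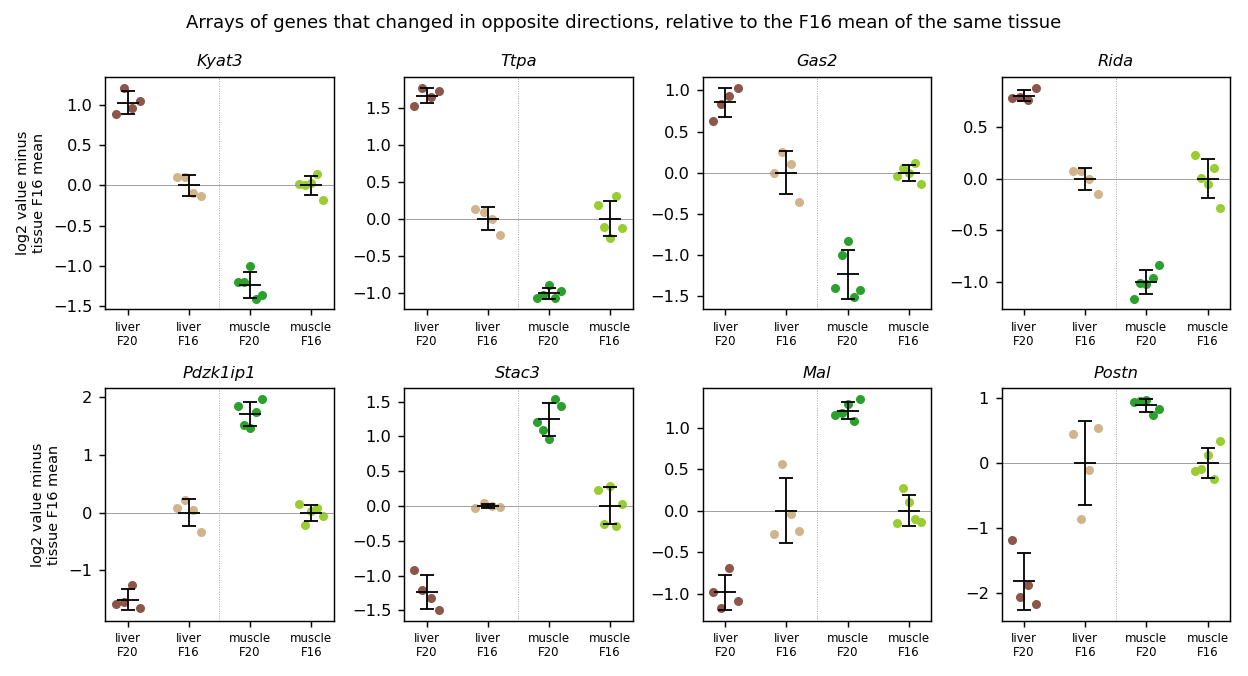
Log2 values of 8 genes with opposite changes in each array, relative to the F16 mean of the same tissue, with mean and SD per group and F20 left of F16 in each tissue. Kyat3, Ttpa, Gas2 and Rida rose in liver and fell in muscle; Pdzk1ip1, Stac3, Mal and Postn fell in liver and rose in muscle.

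Changes in the same direction were more frequent: 465 genes (3.21%) rose and 972 (6.7%) fell in both tissues. Of these, 140 (0.965%) and 186 (1.28%) still had a difference of changes that passed. Rbp2, a cellular retinol-binding protein, was 10.57, 10.70, 10.32 and 10.75 in liver F20 and 8.02, 7.96, 7.84 and 7.70 in liver F16, and 9.998, 9.63, 9.96, 9.48 and 9.39 in muscle F20 and 6.59, 6.50, 6.53, 6.003 and 6.13 in muscle F16. Both tissues were fully apart, and the difference of -0.64 ± 0.44 (SE, 95% interval -1.53 to 0.25) did not pass. The tight junction protein Cldn1 rose almost equally, by 1.50 in liver and 1.46 in muscle, with a 95% interval of the difference of -0.42 to 0.52.

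Carbonic anhydrase 12 (Car12) rose in both but more in liver, where it was 10.19, 10.41, 10.09 and 10.36 at F20 and 6.31, 6.41, 6.24 and 6.42 at F16. In muscle it was 10.57, 10.56, 10.47, 9.28 and 9.50 at F20 and 8.56, 8.31, 8.53, 8.69 and 8.41 at F16, with F20 replicates 4 and 5 below the other three, and the difference was 2.34 ± 0.34 (SE). The alcohol dehydrogenase Adh1c (1.64 in liver, 2.97 in muscle), Cyp2f4 (2.06, 4.04) and the differentiation-related protein Ndrg1 (1.25, 2.11) rose more in muscle.

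Among shared falls, neuronatin (Nnat), an imprinted gene, was 8.12, 8.05, 8.51 and 8.12 in liver F20 and 9.29, 8.92, 9.41 and 9.83 in liver F16, and 11.56, 11.33, 11.62, 11.36 and 11.36 in muscle F20 and 12.69, 12.73, 12.75, 12.63 and 12.53 in muscle F16. Neither tissue overlapped between the time points, and the difference of 0.05 ± 0.23 (SE) had an interval of -0.42 to 0.53. The Wnt antagonist Sfrp1 (-1.61 in liver, -1.28 in muscle), the histone variant Macroh2a2 (-1.39, -1.22) and the ephrin receptor Epha7 (-1.12, -1.21) also fell in both, and the liver F16 arrays of Sfrp1, 8.72, 7.59, 8.09 and 9.12, were again lowest in the array lowest in Actc1. The liver changes of Nnat (-0.69), Sfrp1 (-0.74) and Epha7 (-0.42) did not pass without the Actc1-high livers. The foetal growth regulator Mycn had changes of -0.71 in liver and -0.73 in muscle, and Igf2bp1, an RNA-binding protein of foetal tissues, of -0.53 and -0.49. Hmga2, a chromatin protein of undifferentiated cells, changed by -0.71 in liver and by -1.67 in muscle, a difference of 0.96 ± 0.19 (SE) that passed, while its liver change did not pass without the Actc1-high livers.

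Proliferation genes showed small differences. A difference passed for 16.1% of the mitosis list and 21.2% of the replication list, against 33.0% of all genes. Of 31 mitosis genes 0 rose and 3 fell in liver, against 1 that rose and 22 that fell in muscle, but the difference itself passed for 4 genes in the liver direction and 1 in the muscle direction. The muscle count was 3 rather than 22 without the Alb-high muscles, and the 4 were 0 in both refits. Replication genes had 3 positive and 4 negative differences of 33, with Rfc4 (0.67 ± 0.15, SE) and cyclin E1 (Ccne1, -0.49 ± 0.16) at the ends. These counts were 1 and 1 without the Alb-high muscles and 1 and 3 without the Actc1-high livers, and Ccne1 did not pass in either. Their promoters and those of mitosis genes held an E2F site (TTGGCGC or TTCCCGC, both strands) in 18 of 54 windows (33.3%), against 6.92% of all promoters.

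Blood and vessel lineages differed by tissue. Megakaryocyte and platelet genes fell in liver, with 8 of 9 falling and 8 of 9 negative differences (median -0.74), both 5 without the Actc1-high livers. Platelet factor 4 (Pf4) was 9.31, 9.54, 9.28 and 9.58 in liver F20 and 10.28, 10.08, 10.20 and 10.26 in liver F16, without overlap, and changed by 0.15 in muscle. Its liver change was -0.62 and did not pass without the Actc1-high livers. Neutrophil granule genes moved upwards in liver, where 10 of 16 rose and 9 had a positive difference (5 without the Actc1-high livers). Elastase (Elane) was 9.51, 9.67, 9.29 and 9.66 in liver F20 and 8.18, 8.22, 8.42 and 7.83 in liver F16, and S100a8 rose by 1.54. A negative difference was that of the gelatinase Mmp9, which bone-resorbing cells also make, at 10.35, 10.59, 10.58, 11.59 and 11.42 in muscle F20 and 8.25, 8.27, 8.53, 7.41 and 8.28 in muscle F16.

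Macrophage genes rose in both tissues, 15 of 16 in liver (9 without the Actc1-high livers) and 12 of 16 in muscle. The Kupffer cell lectin Clec4f was 8.44, 8.45, 8.50 and 8.56 in liver F20 and 6.59, 6.90, 6.84 and 6.67 in liver F16 and changed by 0.09 in muscle, and the Kupffer cell receptors Marco and Vsig4 rose by 1.03 and 1.13 in liver. The mannose receptor Mrc1 rose by 0.32 in liver and was 10.06, 10.14, 9.99, 10.22 and 10.21 in muscle F20 and 8.38, 8.19, 8.44, 8.02 and 8.57 in muscle F16, a difference of -1.49 ± 0.12 (SE). Cd163, the haemoglobin scavenger receptor, rose in both, by 2.31 in liver and 1.14 in muscle. In all, 5 macrophage genes had a positive and 6 a negative difference, and the median was -0.08. The 6 were 3 without the Alb-high muscles, and the difference of Vsig4 did not pass without the Actc1-high livers.

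Red cell genes hardly moved in liver, where 0 of 22 rose and 2 fell, and rose in muscle for 10 with 3 falling (0 falling without the Alb-high muscles). The haem enzyme Alas2 was 12.84, 12.95, 12.85 and 12.85 in liver F20 and 12.78, 12.70, 12.79 and 12.72 in liver F16, and 11.95, 12.36, 11.92, 11.65 and 11.35 in muscle F20 and 10.87, 10.06, 10.39, 10.35 and 9.89 in muscle F16. Adult beta-globin (Hbb) changed by 0.04 in liver and rose by 1.11 in muscle. The embryonic globin Hbe2 fell in both, with changes of -0.61 in liver and -0.70 in muscle, and the globin Hbg1 changed by -0.56 in liver without passing and by -1.30 in muscle. Without the Alb-high muscles the muscle changes of Hbe2 (-0.27) and Hbg1 (-0.78) did not pass. The liver change of Hbe2 was -0.68 without the Actc1-high livers, a refit that rests on 1 liver F16 array. GATAAG, bound by the erythroid factor Gata1, was in 5 of 16 red cell promoters (31.2%), against 6.94% of all promoters. The motif was not confined to red cell genes. It was also in 4 of 11 windows of the 15 highest differences and 7 of 54 of secreted liver proteins. Of the 8 named genes that fell in liver and rose in muscle, 2 held it. Contractile and Z-disc genes held it in 0 of 38 windows, and replication and mitosis genes in 2 of 54. Endothelial genes had 11 negative differences of 14. Lyve1, a receptor of lymphatic and sinusoidal endothelium, changed by -0.05 in liver and 1.58 in muscle, and the sinusoidal receptor Fcgr2b was the 1 positive member (0.99 ± 0.21, SE).

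Glycogen genes had 7 positive (4 without the Actc1-high livers) and 3 negative differences of 15. The liver glycogen synthase Gys2 was 11.36, 11.38, 11.18 and 11.42 in liver F20 and 9.96, 10.09, 9.82 and 9.73 in liver F16, while the muscle phosphorylase Pygm was 11.96, 11.69, 11.68, 12.38 and 12.29 in muscle F20 and 9.94, 9.54, 9.98, 9.16 and 10.01 in muscle F16. Both were apart between times, with differences of 1.69 ± 0.25 for Gys2 and -2.45 ± 0.32 for Pygm (SE). Gys1, the synthase of other tissues, rose in both by 0.34 and 0.41, an interval of the difference of -0.38 to 0.25, and its change did not pass in muscle without the Alb-high muscles or in liver without the Actc1-high livers. Glycolysis had 1 positive and 8 negative differences of 20 (5 negative without the Actc1-high livers), among them the muscle isoforms Eno3 (1.64 in muscle) and Pgam2 (1.65), while the general isoforms Eno1 and Pgam1 changed by -0.02 and -0.00.

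Fatty acid oxidation rose in liver for 17 of 19 genes (10 without the Actc1-high livers) and had 13 positive and 3 negative differences (median 0.55), with 1 negative without the Alb-high muscles. The carnitine transferase of the inner membrane, Cpt2, was 10.23, 10.18, 10.11 and 10.23 in liver F20 and 9.43, 9.35, 9.38 and 9.33 in liver F16, a difference of 0.88 ± 0.09 (SE). The outer-membrane step went the other way: Cpt1b, the muscle form, was 9.17, 8.82, 8.68, 9.81 and 9.69 in muscle F20 and 7.13, 7.21, 7.15, 7.12 and 7.43 in muscle F16, and Cpt1a, the liver form, changed by 0.08 in liver and rose by 0.63 in muscle, a difference that did not pass in either refit. Branched-chain amino acid breakdown had 11 positive and 1 negative of 16, but 6 positive without the Alb-high muscles and 4 without the Actc1-high livers. The NADPH-producing malic enzyme Me1 changed by 0.02 in liver and rose by 1.83 in muscle.

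Respiratory chain genes mostly changed by small amounts. Of 33 complex I subunits, 4 had a positive and 0 a negative difference, and the 95% interval lay within 0.5 of 0 for 27. The 4 were 0 without the Actc1-high livers and 8 without the 3 muscle arrays least like their groups. Complexes III and IV had 1 positive (4 without those 3 muscles) and 4 negative of 22. In the fit of all 45 arrays 12 of the 22 rose in muscle (median change 0.17) and 1 rose in liver. Over all genes 20.1% rose in muscle and 9.24% in liver. Refit values of this muscle count are not given here. Among the muscle isoforms of cytochrome oxidase, Cox6a2 was 10.92, 10.57, 10.41, 11.51 and 11.28 in muscle F20 and 9.73, 9.11, 9.65, 8.98 and 9.15 in muscle F16, and Cox8b rose by 1.53. Their general counterparts Cox6a1 and Cox8a rose in muscle by 0.26 and 0.17. ATP synthase had 1 difference in each direction among 15 subunits, and 6 positive without those 3 muscles. A difference passed for 12.1% of the complex I list, 22.7% of complexes III and IV and 13.3% of ATP synthase, against 33.0% of all genes.

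Coenzyme Q biosynthesis genes, with which the study was concerned, moved little in these 4 days. Of 12 measured, 2 had a positive difference, 1 rose in liver and 2 fell in muscle. Over all genes 15.9% had a positive difference, 9.24% rose in liver and 26.7% fell in muscle. The counts of positive differences and of liver rises were thus near the shares over all genes. Coq8a, an atypical kinase of the pathway, was 8.32, 8.37, 8.16 and 8.07 in liver F20 and 7.62, 7.46, 7.63 and 7.50 in liver F16, with no overlap, and 7.33, 7.44, 7.46, 7.75 and 7.70 in muscle F20 and 7.72, 7.57, 7.74, 7.33 and 7.59 in muscle F16, with overlap. Its difference was 0.73 ± 0.22 (SE, adjusted p = 0.0088, limma). The liver change of Coq8a, 0.68, was 0.75 without the Actc1-high livers, a refit that rests on 1 liver F16 array. Coq4, which organises the enzyme complex, changed by -0.10 in liver and was 8.67, 8.61, 8.57, 8.52 and 8.67 in muscle F20 and 8.98, 9.12, 9.07, 9.05 and 8.99 in muscle F16, giving 0.33 ± 0.10 (SE, adjusted p = 0.0073, limma).

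The differences of Coq4 and Coq8a were those that did not hold in every refit: that of Coq4 was 0.31 and missed the threshold without the Alb-high muscles, and Coq4 (0.24) and Coq8a (0.80) missed it without the Actc1-high livers. The 95% interval lay within 0.5 of 0 for 9 of the 12 genes, among them Coq2 (-0.08 to 0.25), Coq7 (-0.13 to 0.29) and Coq9 (-0.10 to 0.35). For Coq10b the difference of 0.54 ± 0.38 (SE, interval -0.22 to 1.30) did not pass and was not bounded.

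Over all genes, the interval lay within 0.5 of 0 for 8458 (58.3%), so that for these a difference larger than 0.5 lay outside the interval. A further group of 1928 genes (13.3%) neither passed nor had such an interval. Cytosolic ribosomal proteins had 2 positive and 2 negative differences of 64 (6.25%, against 33.0% of all genes) and 60 intervals within 0.5. Mitochondrial ribosomal proteins had 9 positive and 4 negative of 67 (19.4%). Without the 3 muscle arrays least like their groups these were 11 and 1 for the cytosolic list, with 21 rather than 7 falling in muscle, and 20 and 1 for the mitochondrial list, which had 3 positive and 2 negative without the Actc1-high livers.

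**Figure D5:**
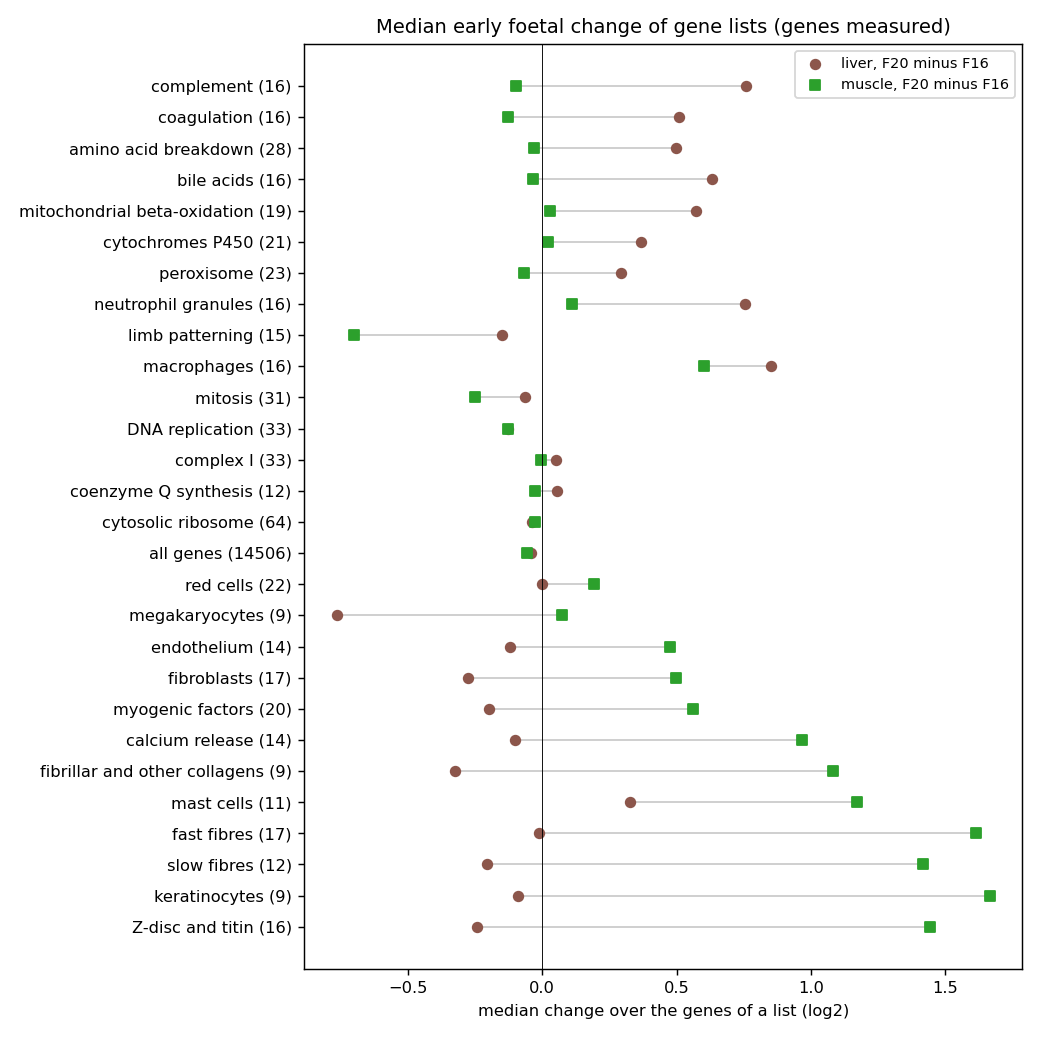
Median liver change and median muscle change (F20 minus F16, log2) of 27 gene lists and of all genes, 1 row per list. Complement, coagulation and enzyme lists have medians well above 0 in liver and near 0 in muscle, contractile, collagen and epidermal lists have medians above 1 in muscle and at or below 0 in liver, and ribosomal and complex I lists lie near 0 in both.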

How the data were processed

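The deposited values are log2 RMA expression values (GeneChip Rat Gene 1.0 ST), made by the authors with Affymetrix Expression Console (version not given in the sources used here), background-corrected, quantile-normalised and summarised for each tissue separately. Array medians were 7.06 to 7.13 in liver and 7.98 to 8.03 in muscle. The number of arrays limits the precision; the median SE of a difference was 0.123. Of 29214 probe sets, 15310 with a single gene symbol were tested. limma 3.58.1 (R 4.3.3) fitted 1 mean per tissue and time point to 45 time-series arrays (20 liver, 25 muscle, 5 time points from F16 to P4), with eBayes and Benjamini-Hochberg adjustment over all 15310 probe sets. The threshold was 0.05. Each of 14506 genes was represented by its probe set with the highest mean, as 527 genes had several.

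Named genes were the 15 highest and 15 lowest differences whose F20 and F16 arrays did not overlap in at least 1 tissue, the 8 opposite and 8 shared changes in each direction with the largest smaller change, up to 4 genes per list and the coenzyme Q genes. Any other gene in the text was picked with its values in view. The members and 69 lists were chosen with earlier results of these data known. List counts use the adjustment over all probe sets. On simulated arrays with 200 changed probe sets of 15310, differences of 0.5, 1 and 2 were recovered for 59.7%, 98.5% and 100%. The simulated noise was independent between arrays and probe sets, with no deviation shared by the genes of an array. In the data 33.0% of genes passed, so the adjustment was stricter in the simulation. Its recovery need not hold for the data. Alternatives covered the arrays fitted, weights, scaling, brightness, probe sets, replicate blocks and left-out arrays. Promoters are RefSeq windows of GRCr8; genes with several windows were left out.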

Additional observations from a re-analysis of the deposited data

Results flagged for a closer look

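Among 104 groups of arrays tested (26 genes in 4 groups), 7 had an array far from the others of its group, where chance gives about 1 in 20. In the first liver F20 array, Ckm was 8.92 with the next at 7.6, Tnni2 was 7.42 with the next at 6.56 and Myl3 was 7.56 with the next at 6.81. Myl3 also stood apart in liver F16 replicate 4, at 7.26 with the next at 6.9. These 2 livers had Actc1 values of 10.24 and 11.19. Alas2 was 12.95 in liver F20 replicate 2 (next 12.85), Cpt1b 7.43 in muscle F16 replicate 5 (next 7.21) and Col1a1 13.63 in muscle F20 replicate 5 (next 13.51).

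The tissues' changes differed, by a test of the difference itself, for 4780 genes, and 209 genes rose in liver and fell in muscle while 331 did the reverse.

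Outside the comparison, Cps1 was 10.46 in muscle F18 replicate 4, where the highest muscle array of F16 and F20 had 7.16.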

How the results depend on the processing

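The count of differences was 4361 to 4760 when each array was left out in turn, and no call shared with the reported fit changed sign in any setting. It was 4990 from the 18 arrays alone, 5005 from all 54 and 6015 with array weights. Centring array medians gave 4964, with the liver change above in 57.7% of calls rather than 48.2%, and 32.9% of muscle calls rising rather than 42.9%. Array weights moved liver falls to 2985, opposite changes to 369 (liver rose) and 515 (liver fell) and shared falls to 1496. Unadjusted p-values gave 318 and 514 opposite changes. With a size of at least 1, 877 differences remained (277 above, 600 below), with 170 liver rises, 43 liver falls, 573 muscle rises, 160 muscle falls, 2 and 2 opposite changes, 27 shared rises and 11 shared falls.

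Refits without doubtful arrays were chosen after seeing the data. Without the 5 muscle arrays with Alb above 11, muscle had 1834 rises and 2324 falls, opposite changes were 139 and 192, and the cartilage and bone median reversed to 0.05. Without the 4 livers with Actc1 above 9, there were 3000 differences (1375 above, 1625 below), 545 liver rises, 654 liver falls, 78 and 76 opposite, 182 shared rises and 329 shared falls; fewer arrays were fitted, and the single liver F16 array left was assumed to vary like the other groups. Of the 130 genes named in the text whose difference passed, 8 missed the threshold without those muscles (Alpl, Ccne1, Coq4, Cox8a, Cpt1a, Cyp7a1, Gamt and Myh3), 15 without those livers (Alpl, Apoc3, Ass1, Ccne1, Coq4, Coq8a, Cpt1a, Cyp7a1, F2, Foxa3, Gamt, Myh3, Nr1h4, Sult1c2 and Vsig4) and 5 without the 3 muscles least like their groups (Alpl, Ccne1, Cox8a, Cyp7a1 and Gamt), and 0 changed sign. Of 112 muscle changes that passed, 18 missed it without the 5 muscles and 5 without the 3, and of 81 liver changes 26 missed it without the 4 livers; Serpina6 in muscle (0.23) and Col1a1 in liver (0.12) turned sign.

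Same-numbered arrays did not deviate together (correlations of -0.402 to 0.104), so the numbers were not taken as pairs. The replicate block within tissue gave 4665 differences, and the block shared by tissues, over replicates 1 to 4, gave 4590. With 4 or 5 arrays a group, simulated differences of 0.5 were recovered for 59.7% of probe sets. That simulation had independent noise and few changed probe sets, so its recovery need not hold for these data.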
